A study of Homo sapiens with 6 samples.

Results

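Genes of cholesterol synthesis, uptake and export were examined in HaCaT cells, an immortalized human keratinocyte line. The set held 33 genes: 19 enzymes of sterol synthesis, 5 genes of the SREBP machinery, 5 genes of uptake and trafficking and 4 genes of export and of the LXR receptors. They were chosen by symbol, and all 33 were among the 20014 Ensembl genes of the deposited table. Cells that carried a CRISPR guide against STUB1 (genotype STUB1 knockout, 3 libraries) were compared with cells that carried a control guide (genotype WT, called control here, 3 libraries). The STUB1 protein (CHIP) attaches ubiquitin to clients of the HSP70 and HSP90 chaperones. Both groups went through the same lentiviral delivery of Cas9 and guide, and neither had a further treatment. Per the labels, cells were sorted into wells and the resulting colonies were checked for STUB1 protein by immunoblot. The labels do not say how many clones stand behind a group or whether its libraries were separate cultures, so a difference between clones and an effect of the knockout cannot be told apart. The p-values here reflect the library-to-library spread alone, and this spread may be technical.

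Animal cells build cholesterol from acetyl-CoA. The mevalonate pathway makes isoprenoid units, which are joined into squalene, folded into lanosterol and trimmed to cholesterol in the endoplasmic reticulum. When sterols in that membrane run low, SCAP escorts the SREBP transcription factors to the Golgi apparatus, where proteases release their active part, and genes of synthesis and uptake are switched on together. INSIG proteins hold SCAP back when sterols are plentiful. Oxysterols act on LXR receptors, which switch on export through ABCA1 and ABCG1. Keratinocytes make much of their own cholesterol, which becomes part of the lipid barrier of the skin.

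STUB1 mRNA measured 21.6, 24.7 and 23.2 FPKM in knockout libraries 1 to 3, against 37.8, 41.9 and 52.7 FPKM in control libraries 1 to 3 (log2 fold change -0.89, SE 0.116; limma with Benjamini-Hochberg adjustment, adjusted p = 0.00125). FPKM relates fragments to transcript length and to the mapped fragments of the library. Low values moved in steps that imply roughly 45100000 to 52200000 reads per library. Of the 10 keratinocyte markers, 8 averaged at least 1 FPKM, while KRT14 and KRT17 did not exceed 0.328 and 0.536 FPKM in any library. The summed level of the 10 markers was 1025 to 1128 FPKM in the knockout and 812 to 881 FPKM in the control, a difference whose part in the results below was not tested. Summed markers of fibroblasts did not exceed 0.562 FPKM in any knockout library and 0.535 FPKM in any control library, and the leukocyte genes PTPRC and CD3E stayed at or under 0.0310 FPKM in every library. The leukocyte list as a whole summed to 22.7 to 25.6 FPKM in the knockout and 21.1 to 22.1 FPKM in the control, nearly all of it CD68, the only one of its 6 genes at a mean of 1 FPKM or more. Melanocyte markers summed to 6.48 to 7.66 FPKM and 6.77 to 7.41 FPKM, and endothelial markers to 1.88 to 2.01 FPKM and 2.07 to 3.03 FPKM, in knockout and control. Control 3 stood apart: its log2 values moved by -0.104 per doubling of transcript length relative to the mean of the 6 libraries, while the other 5 libraries lay between -0.00939 and 0.0349. Values against GC content also differed by group, with slopes per 10 percentage points of GC of 0.0118, 0.135 and 0.0383 log2 units in the knockout libraries and -0.1, -0.0369 and -0.0478 in the control libraries.

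The pathway did not move as a block. Of the 33 genes, 31 averaged at least 1 FPKM over the 6 libraries and were tested, and ABCA1 and ABCG1 fell under that filter. Among the 31, 6 rose and 6 fell in the STUB1 knockout and 19 did not pass (limma on log2(FPKM + 1), Benjamini-Hochberg adjusted p under 0.05 over all 11262 genes tested). Those that rose were HMGCS1, MVK, MVD, LSS, TM7SF2 and MSMO1, all of them synthesis enzymes. Those that fell were the enzymes ACAT2, SQLE and LBR, the transcription factor SREBF1, the sterol carrier STARD4 and the ubiquitin ligase MYLIP. The calls made up 38.7% of the 31 tested genes, against 22.9% of all tested genes (9.58% higher and 13.3% lower). Rescaled to TPM, all tested genes gave 667 higher and 1622 lower calls in place of 1079 and 1500, and scaled without mitochondrial genes 976 and 1012. The 31 genes had a median log2 fold change of 0.01, against -0.01 over all tested genes, and their median absolute log2 fold change was 0.20, against 0.15. Knockout and control libraries did not overlap for 15 of the 31, 7 with the knockout above and 8 with it below, where 45.6% of all tested genes did not overlap (20.4% above and 25.3% below). No change reached 2-fold on the log2(FPKM + 1) scale.

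The counts depended on single libraries. Without control 3 there were 9 higher and 7 lower, and all 12 calls were kept; that was 51.6% of the 31 genes, against 40.1% of all genes in the same fit. Without knockout 1, 2 or 3 there were 2, 2 and 2 higher and 4, 3 and 2 lower, and without control 1 there were 3 higher and 4 lower. These made up 19.4%, 16.1%, 12.9% and 22.6% of the 31 genes, against 12.6%, 9.15%, 10.6% and 13.3% of all genes. With each library weighted by its noise, which gave knockout 3 a weight of 4.64 and control 3 a weight of 0.123, 12 were higher and 7 lower, or 61.3%, a share near the 57.2% of all genes called in that fit. The calls of ACAT2 and LBR held under all 15 alternatives. In exact permutation tests of a single gene, 3 against 3 libraries cannot go below p = 0.1 (two-sided), and the 12 genes called each stood at that value.

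**Figure D1:**
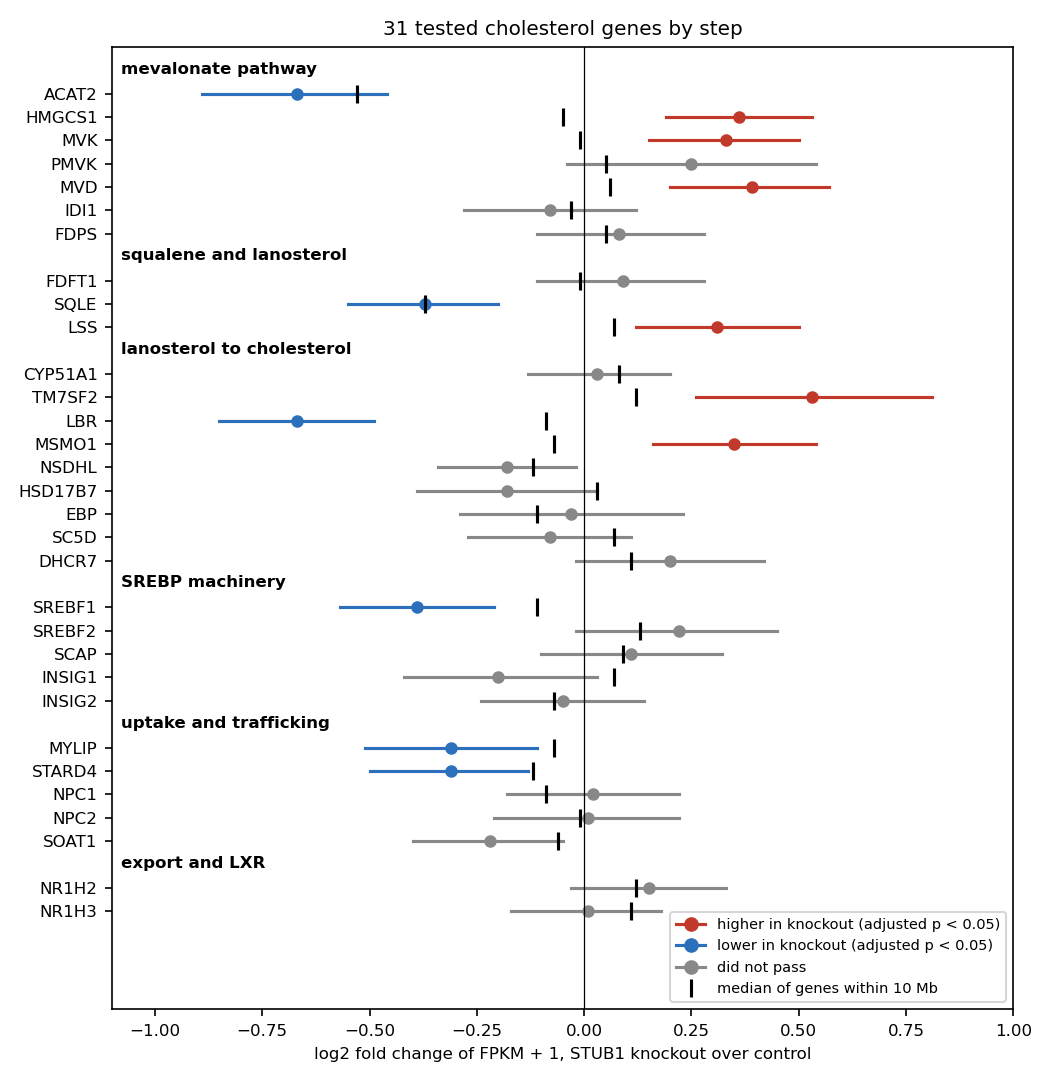
Log2 fold change of FPKM + 1 (horizontal axis, STUB1 knockout over control) of 31 tested cholesterol genes, grouped by step, with 95% confidence intervals from limma as lines; red genes rose, blue genes fell, grey genes did not pass, and black ticks give the median of the tested genes within 10 Mb. Red and blue points occur side by side within the synthesis steps, and the ticks of ACAT2 and SQLE lie at -0.53 and -0.37, close to the genes' own values of -0.67 and -0.37.

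SREBP factors act on promoters together with NF-Y, which binds the CCAAT box, and Sp1, which binds the GC box. The 250 bases before each annotated start were searched on both strands for the SREBP motif TCACNCCAC, for CCAAT and for GGGCGG; matches were counted separately, also where they overlapped. RefSeq windows (GRCh38.p14) were matched for 29 of the 33 genes, and ACAT2, FDFT1, SQLE and ABCG1 had none. SREBF2 alone held the SREBP motif, which 1.09% of 27305 genes held. At least 1 CCAAT box lay before 20 of the 29 genes, against 37.0% of all genes, and a GC box before 27, against 46.2%. All 6 genes that rose held a CCAAT box, as did 2 of the 4 matched genes that fell (MYLIP and STARD4, while LBR and SREBF1 had none) and 12 of the 19 others. A gene counted if any of its windows held a box. By window, a box lay in 6 of 7 for genes that rose, 2 of 4 for genes that fell and 14 of 28 for the others. The window of HMGCS1 that is not printed below held none. SREBF1 had 1 window, at the outer end of the gene, so any start farther inside the gene was not searched. These are matches of letters, not measured binding, and no test was made of the shares. Only exact matches within the 250 bases were counted, so a gene without a match may still hold a site. The windows below show the SREBF2 promoter, 3 genes that rose and both genes that fell without a CCAAT box, with the SREBP motif and the CCAAT box (CCAAT, or ATTGG on the other strand) in capitals.
SREBF2 (chr22:41832855-41833104, plus strand, did not pass): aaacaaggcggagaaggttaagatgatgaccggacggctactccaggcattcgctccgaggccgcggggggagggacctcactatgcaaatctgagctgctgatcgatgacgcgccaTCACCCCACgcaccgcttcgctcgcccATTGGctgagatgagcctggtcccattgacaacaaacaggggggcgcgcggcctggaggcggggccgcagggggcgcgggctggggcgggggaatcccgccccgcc
HMGCS1 (chr5:43313413-43313662, minus strand, rose; the farther upstream of its 2 starts): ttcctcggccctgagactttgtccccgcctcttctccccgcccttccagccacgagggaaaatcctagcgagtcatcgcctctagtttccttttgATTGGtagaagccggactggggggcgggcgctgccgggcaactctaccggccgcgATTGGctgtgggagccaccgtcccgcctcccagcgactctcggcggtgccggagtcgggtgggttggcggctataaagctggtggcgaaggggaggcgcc
MVD (chr16:88663092-88663341, minus strand, rose): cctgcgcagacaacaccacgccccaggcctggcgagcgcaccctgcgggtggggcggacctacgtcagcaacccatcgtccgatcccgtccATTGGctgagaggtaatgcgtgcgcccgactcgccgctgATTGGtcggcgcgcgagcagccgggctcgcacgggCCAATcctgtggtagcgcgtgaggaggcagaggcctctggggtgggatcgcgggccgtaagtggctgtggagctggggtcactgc
MSMO1 (chr4:165327419-165327668, plus strand, rose): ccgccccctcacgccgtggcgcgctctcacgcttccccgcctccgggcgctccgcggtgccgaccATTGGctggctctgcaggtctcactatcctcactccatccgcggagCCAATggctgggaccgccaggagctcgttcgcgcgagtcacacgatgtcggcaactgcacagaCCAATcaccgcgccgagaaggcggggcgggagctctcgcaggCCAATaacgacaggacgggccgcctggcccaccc
LBR (chr1:225428822-225429071, minus strand, fell): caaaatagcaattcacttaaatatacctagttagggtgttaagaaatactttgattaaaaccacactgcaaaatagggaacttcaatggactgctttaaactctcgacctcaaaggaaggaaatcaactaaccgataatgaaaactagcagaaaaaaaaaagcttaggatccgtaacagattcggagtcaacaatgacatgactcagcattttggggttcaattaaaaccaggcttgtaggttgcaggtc
SREBF1 (chr17:17836987-17837236, minus strand, fell): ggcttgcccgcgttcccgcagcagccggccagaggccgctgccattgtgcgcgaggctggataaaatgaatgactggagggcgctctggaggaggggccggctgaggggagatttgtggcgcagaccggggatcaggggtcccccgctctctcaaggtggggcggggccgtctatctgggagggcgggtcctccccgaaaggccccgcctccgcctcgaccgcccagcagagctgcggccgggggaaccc
In SREBF2 the SREBP motif starts 133 bases before the start and a CCAAT box follows at 106 bases. MSMO1 held 4 CCAAT boxes within its 250 bases and MVD held 3. Among windows not printed, MVK, which rose, and NSDHL, which did not pass, held 5 each.

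The mevalonate pathway had 3 enzymes that rose, 1 that fell and 3 that did not pass, with a median log2 fold change of 0.25 over its 7 genes. The calls were 57.1% of the 7, against 22.9% of all tested genes. ACAT2, the thiolase that joins acetyl-CoA units, fell, while HMGCS1, the synthase of the next step, rose. ACAT2 (chromosome 6, 159760328 to 159779055, GRCh38) measured 71.1, 67.0 and 68.4 FPKM in the knockout libraries, against 107, 99.4 and 126 FPKM in the control libraries. Every knockout library lay below every control library, and the knockout mean was 62.1% of the control mean (log2 fold change -0.67, SE 0.0940; limma with Benjamini-Hochberg adjustment, adjusted p = 0.00163). Its neighbourhood was lower too: of 45 tested genes within 10 Mb, 37 were called lower and 0 higher, with a median of -0.53, and the part of this in the ACAT2 value was not tested. Of its exonic bases, 33.9% are shared with a gene on the opposite strand, and without a stated strand setting such reads cannot be assigned.

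HMGCS1 (chromosome 5, 43289395 to 43313512) measured 109.9, 95.1 and 104 FPKM in the knockout libraries, against 79.7, 79.6 and 79.7 FPKM in the control libraries. The control libraries were nearly equal, and all knockout libraries lay above them (log2 fold change 0.36, SE 0.0758; limma with Benjamini-Hochberg adjustment, adjusted p = 0.0101). The median of its 39 neighbours was -0.05. HMGCS1 missed the threshold when knockout 1 (adjusted p = 0.0549) or knockout 3 (adjusted p = 0.0595) was left out. HMGCS1 also shares 15.0% of its exonic bases with an antisense gene.

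MVK, the kinase that first phosphorylates mevalonate, measured 9.67, 9.07 and 9.06 FPKM in the knockout libraries, against 6.76, 7.05 and 7.79 FPKM in the control libraries (log2 fold change 0.33, SE 0.0769; limma with Benjamini-Hochberg adjustment, adjusted p = 0.0174). MVD, the decarboxylase that turns the phosphorylated product into isopentenyl diphosphate, measured 13.8, 15.7 and 14.2 FPKM in the knockout libraries, against 10.5, 10.5 and 11.9 FPKM in the control libraries (log2 fold change 0.39, SE 0.0822; adjusted p = 0.0112). In both genes the groups were separate, and control 3 was the control library nearest to the knockout. MVK kept its call under no leave-one-out fit but those without control 2 or control 3, with adjusted p = 0.0726, 0.0576 and 0.0685 without knockout 1, 2 and 3 and adjusted p = 0.0733 without control 1. MVD lost its call without knockout 2 (adjusted p = 0.0566).

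PMVK, the kinase between MVK and MVD, pointed the same way but did not pass. It had 11.0, 13 and 12.3 FPKM in the knockout libraries, against 9.11, 8.65 and 12.6 FPKM in the control libraries, so that control 3 lay among the knockout values (log2 fold change 0.25, 95% interval -0.04 to 0.54; limma with Benjamini-Hochberg adjustment, adjusted p = 0.183). Its log2 fold change was 0.41 without control 3 (adjusted p = 0.000535) and 0.16 without control 2 (adjusted p = 0.389). IDI1, the isomerase of the isoprenoid unit, averaged 28.0 ± 2.55 FPKM in the knockout and 29.7 ± 2.23 FPKM in the control (SD, n = 3 each), with a log2 fold change of -0.08 (95% interval -0.28 to 0.12). FDPS, which condenses the units into farnesyl diphosphate, had the highest mean FPKM of the 33 genes over the 6 libraries, at 111 ± 1.6 FPKM in the knockout and 105 ± 10.8 FPKM in the control (SD, n = 3 each). Its log2 fold change was 0.08 (95% interval -0.11 to 0.28), and 0.17 without control 3 (limma with Benjamini-Hochberg adjustment, adjusted p = 0.0183). FDPS has 8 named pseudogenes, which may share its reads.

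**Figure D2:**
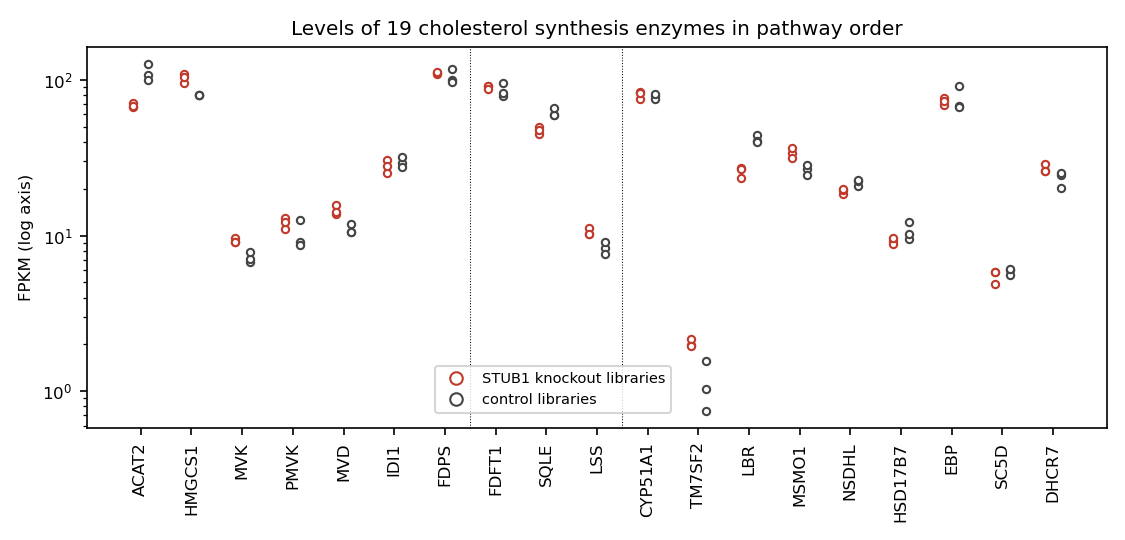
FPKM on a log axis of the 19 synthesis enzymes in pathway order, with knockout libraries in red to the left of control libraries in grey, and dotted lines between the mevalonate steps, the squalene and lanosterol steps and the later steps. Values of single libraries span from 0.751 FPKM (TM7SF2, control 1) to 126 FPKM (ACAT2, control 3), and the differences between groups are small beside that span.

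Squalene and lanosterol formation again held a fall next to a rise. The calls were 66.7% of only 3 genes, against 22.9% of all tested genes. SQLE, the epoxidase that adds oxygen to squalene and a rate-limiting step of the later pathway, measured 50.2, 44.8 and 47.6 FPKM in the knockout libraries, against 59.5, 59.7 and 66.3 FPKM in the control libraries. The groups did not overlap, and the knockout mean was 76.9% of the control mean (log2 fold change -0.37, SE 0.0780; limma with Benjamini-Hochberg adjustment, adjusted p = 0.0102). Of 43 tested genes within 10 Mb of SQLE, 28 were called lower and 1 higher, with a median of -0.37, the same as the value of SQLE; the part of this in the SQLE result was not tested. SQLE missed the threshold when knockout 2 (adjusted p = 0.0557) or knockout 3 (adjusted p = 0.0523) was left out.

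LSS, the cyclase that folds the epoxide into lanosterol, measured 10.3, 11.2 and 10.2 FPKM in the knockout libraries, against 8.37, 9.08 and 7.58 FPKM in the control libraries (log2 fold change 0.31, SE 0.0835; limma with Benjamini-Hochberg adjustment, adjusted p = 0.0290). The groups were separate, yet the call was lost without knockout 1 (adjusted p = 0.0740), knockout 2 (0.114), knockout 3 (0.0853) or control 1 (0.0776), and after rescaling to TPM (0.0729). FDFT1, squalene synthase, had 90.2 ± 2.94 FPKM in the knockout and 85.2 ± 8.69 FPKM in the control (SD, n = 3 each) and did not pass (log2 fold change 0.09, 95% interval -0.11 to 0.28), though without control 3 its log2 fold change was 0.17 (limma with Benjamini-Hochberg adjustment, adjusted p = 0.0250).

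Between lanosterol and cholesterol 2 of 9 enzymes rose, 1 fell and 6 did not pass. The calls were 33.3% of the 9, against 22.9% of all tested genes. LBR and TM7SF2 are alternative C14 sterol reductases, and they moved in opposite directions. LBR, an inner nuclear membrane protein that also binds lamin B, measured 27.1, 23.6 and 26.6 FPKM in the knockout libraries, against 44.0, 40.6 and 40.0 FPKM in the control libraries. Its knockout mean was 62.1% of the control mean (log2 fold change -0.67, SE 0.0793; limma with Benjamini-Hochberg adjustment, adjusted p = 0.000835), the smallest adjusted p among the 31. Of 81 neighbours within 10 Mb of LBR (chromosome 1, 225401502 to 225428925), 11 were lower and 4 higher, and their median was -0.09.

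TM7SF2 measured 1.98, 2.17 and 1.96 FPKM in the knockout libraries, against 0.751, 1.04 and 1.56 FPKM in the control libraries. It was scarce in all libraries, and the knockout mean was 182% of the control mean (log2 fold change 0.53, SE 0.123; limma with Benjamini-Hochberg adjustment, adjusted p = 0.0153). With a pseudocount of 0.1, which shrinks low genes less, its log2 fold change was 0.86. The call was lost without knockout 2 (adjusted p = 0.0963). The median of its 255 neighbours was 0.12, with 48 higher and 6 lower.

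Taken as a pair, TM7SF2 supplied 6.79%, 8.40% and 6.86% of the summed LBR and TM7SF2 FPKM in the knockout libraries, against 1.68%, 2.51% and 3.76% in the control libraries. The share did not overlap between groups (exact two-sided permutation p = 0.1, the smallest possible). GC content is 64.2% for TM7SF2 and 37.8% for LBR, and the share was not corrected for the GC slopes, which differed by group. After correction for GC content and length with the replicate number as a block, the log2 fold changes were 0.40 for TM7SF2 and -0.49 for LBR. The sum stayed lower in the knockout, at 27.8 ± 1.77 FPKM, against 42.6 ± 1.81 FPKM in the control (SD, n = 3 each), since LBR is the far more abundant of the pair. The sum, too, did not overlap between groups (exact two-sided permutation p = 0.1).

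MSMO1, the oxidase that starts removal of the C4 methyl groups, measured 34.0, 31.5 and 36.3 FPKM in the knockout libraries, against 26.6, 24.4 and 28.4 FPKM in the control libraries (log2 fold change 0.35, SE 0.0839; limma with Benjamini-Hochberg adjustment, adjusted p = 0.0189). The groups were separate, with a median of -0.07 among 25 neighbours. MSMO1 missed the threshold when knockout 1 (adjusted p = 0.0679), knockout 3 (0.0982) or control 1 (0.0546) was left out. NSDHL and HSD17B7, which act with MSMO1 in the same demethylation, did not follow it. NSDHL, on the X chromosome, had 19.4 ± 0.723 FPKM in the knockout and 22.1 ± 1.10 FPKM in the control (SD, n = 3 each), without overlap but short of the threshold (log2 fold change -0.18; limma with Benjamini-Hochberg adjustment, adjusted p = 0.101), and at -0.10 after correction for GC content and length. HSD17B7 had 9.24 ± 0.40 FPKM in the knockout and 10.6 ± 1.41 FPKM in the control (SD, n = 3 each; log2 fold change -0.18, adjusted p = 0.196 by limma with Benjamini-Hochberg adjustment). The HSD17B7 value was -0.09 without control 3, -0.06 after the correction and -0.03 with library weights.

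The remaining late enzymes did not pass. CYP51A1, which removes the C14 methyl group, had 80.3 ± 4.69 FPKM in the knockout and 78.3 ± 2.60 FPKM in the control (SD, n = 3 each), with a log2 fold change of 0.03 (95% interval -0.13 to 0.20). It shares 79.4% of its exonic bases with a second annotated gene on the same strand. EBP, the sterol isomerase, had 68.8, 77.0 and 73.6 FPKM in the knockout libraries, against 68.5, 67.2 and 90.8 FPKM in the control libraries, where control 3 alone stood high (log2 fold change -0.03, 95% interval -0.29 to 0.23). SC5D, the C5 desaturase, had a log2 fold change of -0.08 (95% interval -0.27 to 0.11). DHCR7, the last reductase on the route through 7-dehydrocholesterol, had 26.0, 28.8 and 26.0 FPKM in the knockout libraries, against 24.6, 25.4 and 20.1 FPKM in the control libraries. The DHCR7 groups did not overlap, but the gene missed the threshold (log2 fold change 0.20, 95% interval -0.02 to 0.42; limma with Benjamini-Hochberg adjustment, adjusted p = 0.158). Its value was 0.10 without control 3, 0.10 after correction for GC content and length and 0.09 with library weights.

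**Figure D3:**
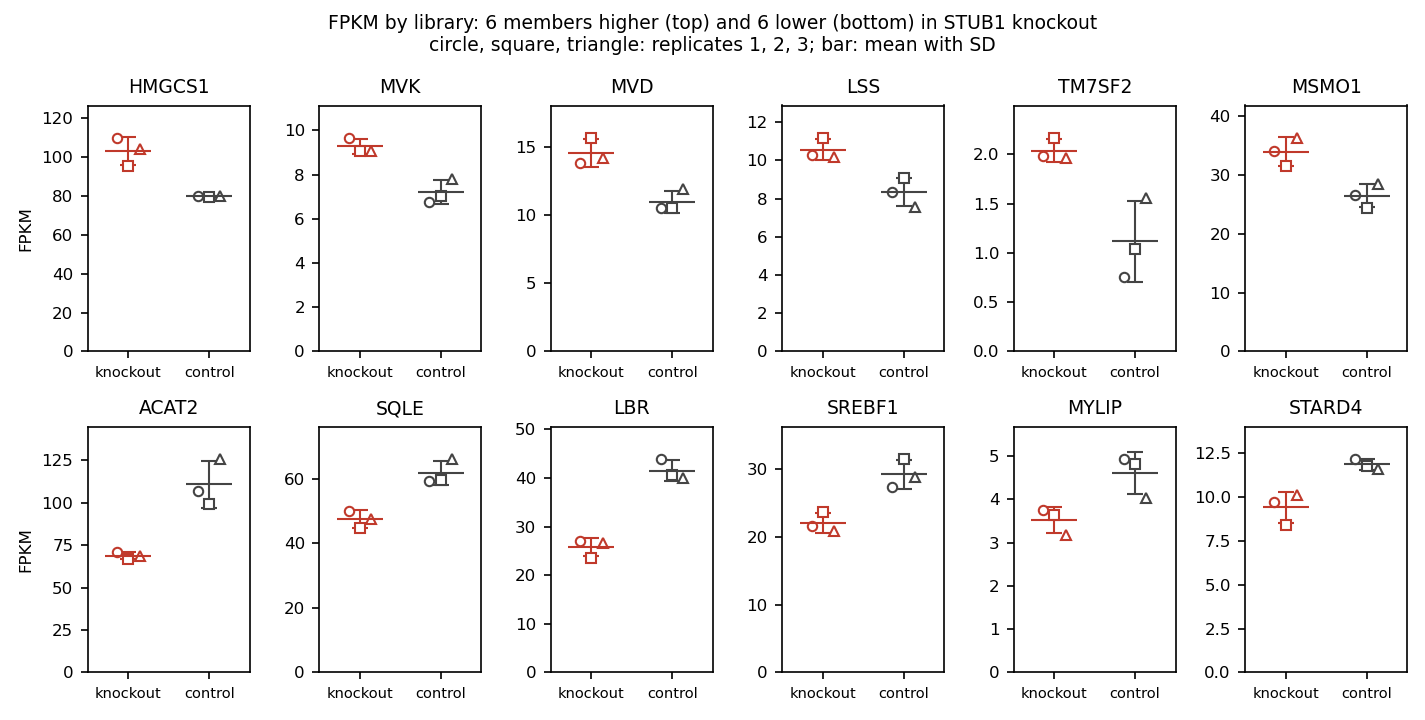
FPKM (vertical axis, each from 0) of the 12 genes that passed, in knockout libraries (red, left) and control libraries (grey, right), with replicates 1, 2 and 3 as circle, square and triangle and the mean with its SD as a bar. In each of the 12 panels all 3 knockout libraries lie on the same side of all 3 control libraries.

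Among the regulators SREBF1 fell and the other 4 did not pass. SREBF1 encodes the SREBP1 factors, of which the a form drives sterol and fatty acid genes and the c form mainly fatty acid genes; FPKM per gene does not separate the forms. It measured 21.5, 23.6 and 20.9 FPKM in the knockout libraries, against 27.3, 31.5 and 28.8 FPKM in the control libraries (log2 fold change -0.39, SE 0.0811; limma with Benjamini-Hochberg adjustment, adjusted p = 0.00974). The groups did not overlap, and the knockout mean was 75.4% of the control mean. Of 89 neighbours within 10 Mb (SREBF1 lies on chromosome 17, 17810399 to 17837002), 16 were lower and 0 higher, with a median of -0.11. The call was lost without knockout 3 (adjusted p = 0.0595).

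SREBF2, which encodes the factor that chiefly drives cholesterol synthesis, measured 34.9, 38.0 and 35.3 FPKM in the knockout libraries, against 31.5, 35.4 and 26.4 FPKM in the control libraries. Control 2 lay within the knockout range and control 3 far below it (log2 fold change 0.22, 95% interval -0.02 to 0.45; limma with Benjamini-Hochberg adjustment, adjusted p = 0.159). Without control 2 it passed, at 0.31 (adjusted p = 0.0469), while its log2 fold change was 0.11 without control 3 and 0.05 after correction for GC content and length. With library weights it was 0.14 and passed (adjusted p = 0.0195). The ratio of SREBF1 to SREBF2 FPKM, which does not depend on the scaling of a library, was 0.616, 0.620 and 0.592 in the knockout libraries, against 0.866, 0.888 and 1.09 in the control libraries (exact two-sided permutation p = 0.1). The ratio was lower in each knockout library than in any control library. The ratio of INSIG1 to INSIG2 overlapped, at 1.43, 1.32 and 1.29 in the knockout libraries, against 1.39, 1.55 and 1.56 in the control libraries (exact two-sided permutation p = 0.2).

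SCAP, the escort of SREBP, had a log2 fold change of 0.11 (95% interval -0.10 to 0.32). INSIG1, itself a classic SREBP target, measured 13.4, 11.9 and 12.5 FPKM in the knockout libraries, against 13.3, 13.8 and 17.0 FPKM in the control libraries, with overlap (log2 fold change -0.20, 95% interval -0.42 to 0.03; limma with Benjamini-Hochberg adjustment, adjusted p = 0.176). The INSIG1 value was -0.10 without control 3, -0.11 after correction for GC content and length and -0.09 with library weights. INSIG2 had 9.37 ± 0.321 FPKM in the knockout and 9.79 ± 1.02 FPKM in the control (SD, n = 3 each; log2 fold change -0.05, 95% interval -0.24 to 0.14).

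Uptake and trafficking genes had no rise, 2 falls and 3 that did not pass, with a median log2 fold change of -0.22. The calls were 40.0% of only 5 genes, against 22.9% of all tested genes. MYLIP, also called IDOL, is a ubiquitin ligase that sends lipoprotein receptors for degradation and a target of LXR. It measured 3.75, 3.63 and 3.17 FPKM in the knockout libraries, against 4.94, 4.81 and 4.04 FPKM in the control libraries (log2 fold change -0.31, SE 0.0895; limma with Benjamini-Hochberg adjustment, adjusted p = 0.0367). This was the weakest of the 12 calls: it was lost without knockout 1, 2 or 3 (adjusted p = 0.0690, 0.106 and 0.156), without control 1 or 2 (0.119 and 0.0743), with no filter on low values (0.0738) and when libraries were scaled without mitochondrial genes (0.121).

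STARD4, a cytosolic carrier that moves sterols between membranes, measured 9.74, 8.39 and 10.1 FPKM in the knockout libraries, against 12.2, 11.8 and 11.6 FPKM in the control libraries (log2 fold change -0.31, SE 0.0818; limma with Benjamini-Hochberg adjustment, adjusted p = 0.0256). The groups did not overlap. The call was lost without knockout 1, 2 or 3 (adjusted p = 0.0625, 0.0808 and 0.0567), without control 1 (0.0849) and when scaled without mitochondrial genes (0.0840). SOAT1, which esterifies cholesterol for storage, lay lower without overlap, at 10.9, 9.54 and 10.9 FPKM in the knockout libraries, against 12.6, 12.3 and 12.1 FPKM in the control libraries, but missed the threshold (log2 fold change -0.22, 95% interval -0.40 to -0.05; limma with Benjamini-Hochberg adjustment, adjusted p = 0.0646). SOAT1 passed without control 3 at -0.24 (adjusted p = 0.0156) and with library weights at -0.20 (adjusted p = 0.00185), while the correction for GC content and length gave -0.11 without the replicate block and with it (adjusted p = 0.0907 and 0.147).

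NPC1 and NPC2 hand cholesterol out of the lysosome. NPC1 had 12.3 ± 0.0530 FPKM in the knockout and 12.2 ± 1.41 FPKM in the control (SD, n = 3 each), with a log2 fold change of 0.02 (95% interval -0.18 to 0.22). NPC2 had 87.6 ± 1.43 FPKM in the knockout and 87.8 ± 12.0 FPKM in the control (SD, n = 3 each), with a log2 fold change of 0.01 (95% interval -0.21 to 0.22). For both genes the control libraries spread far more than the knockout libraries, and control 3 was the extreme one, lowest for NPC1 and highest for NPC2.

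Both export transporters were listed at low values. ABCA1, which loads cholesterol onto apolipoproteins, had 0.0410, 0.0450 and 0.0540 FPKM in the knockout libraries, against 0.0370, 0.0680 and 0.0520 FPKM in the control libraries. ABCG1 had 0.107, 0.121 and 0.216 FPKM in the knockout libraries, against 0.255, 0.198 and 0.417 FPKM in the control libraries. Both genes overlapped between groups. Neither passed when genes of every level were tested (limma with Benjamini-Hochberg adjustment, adjusted p = 0.759 for ABCA1 and 0.149 for ABCG1), on a log2(FPKM + 1) scale that shrinks such values: the ABCG1 knockout mean was 51.0% of the control mean. NR1H2, the broadly expressed LXR-beta, had 6.44 ± 0.476 FPKM in the knockout and 5.71 ± 0.331 FPKM in the control (SD, n = 3 each; log2 fold change 0.15, 95% interval -0.03 to 0.33), and its value was 0.03 after the correction for GC content and length. NR1H3, LXR-alpha, had 1.70 ± 0.210 FPKM in the knockout and 1.69 ± 0.136 FPKM in the control (SD, n = 3 each; log2 fold change 0.01, 95% interval -0.17 to 0.18).

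Libraries differed in GC and length bias, so fold changes were also taken after a per-library correction for both (11177 genes), in a fit with the replicate number as a block. In that fit 5 genes were higher and 4 lower, of which 7 were calls of the uncorrected fit. The 9 calls were 29% of the 31 genes, a share near the 25.3% of all 11177 genes called in the same fit. HMGCS1, MSMO1 and TM7SF2 kept their rise, at 0.51, 0.60 and 0.40 on the log2 scale (limma with Benjamini-Hochberg adjustment, adjusted p = 0.00223, 0.00189 and 0.0215). ACAT2, LBR, SQLE and SREBF1 kept their fall, at -0.68, -0.49, -0.32 and -0.62 (adjusted p = 0.00318, 0.00250, 0.0128 and 0.00189). MVD, LSS, MVK, MYLIP and STARD4 did not pass there, at 0.21, 0.14, 0.17, -0.19 and -0.08 (adjusted p = 0.0531, 0.0902, 0.161, 0.0664 and 0.353). CYP51A1 and INSIG2 passed on the higher side, at 0.20 and 0.20 (adjusted p = 0.0329 and 0.0469), INSIG2 with its sign turned. The correction without the block gave 7 higher and 4 lower (35.5%, against 28.2% of all genes), with MVD at adjusted p = 0.0348 and LSS at adjusted p = 0.0410.

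**Figure D4:**
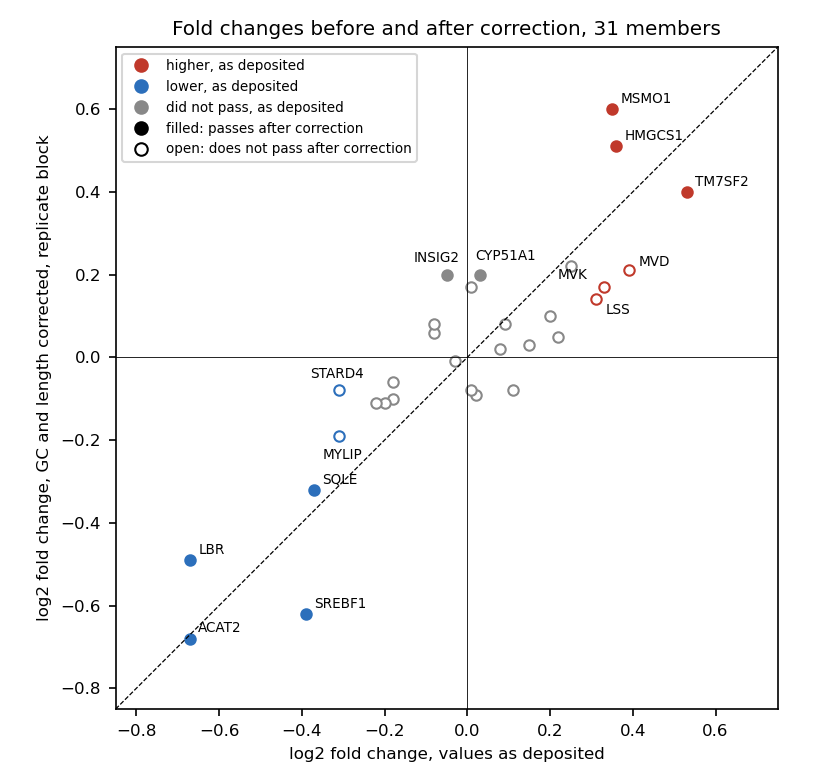
Log2 fold change of the 31 genes as deposited (horizontal axis) against the value after GC and length correction with the replicate block (vertical axis); colours give the call as deposited, filled points pass after correction, and the dashed line marks equal values. Among genes that rose, MSMO1 and HMGCS1 lie above the line at 0.60 and 0.51, while MVD, MVK and LSS lie below it at 0.21, 0.17 and 0.14.

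Neighbouring pathways were covered by 67 further genes from textbook lists, of which 59 were tested. Of these 8 rose, 11 fell and 40 did not pass, with a median log2 fold change of -0.04. The calls were 32.2% of the 59, against 22.9% of all tested genes, and by list, in the order below, 38.5% of the fatty acid genes, 14.3% of the SREBP processing and degradation genes, 16.7% of the isoprenoid genes, 38.5% of the uptake, transfer and ester genes and 71.4% of the 7 tested LXR, oxysterol and sulfate genes. Without control 3, 9 were higher and 18 lower, in a fit that called 40.1% of all tested genes. Without knockout 2 or 3 only 4 were higher, in fits that called 9.15% and 10.6% of all tested genes in either direction. The list of fatty acid genes that SREBP factors also drive had 3 higher, 2 lower and 8 not passed of 13. It also held TMEM97 and ALDOC, which are no fatty acid enzymes. Among the 8 not passed, FASN had a log2 fold change of -0.35 and SCD -0.24 (limma with Benjamini-Hochberg adjustment, adjusted p = 0.0950 and 0.116). ALDOC alone of the 8 had a positive value, at 0.17. FASN, SCD and ALDOC were named after their values were seen. ACSS2, which makes acetyl-CoA from acetate, measured 21.1, 20.7 and 19.9 FPKM in the knockout libraries, against 15.1, 15.7 and 15.0 FPKM in the control libraries (log2 fold change 0.41; limma with Benjamini-Hochberg adjustment, adjusted p = 0.00345). Fatty acid desaturases FADS1 and FADS2 rose by 0.36 and 0.29 (adjusted p = 0.0365 and 0.0333), FADS1 being named after its values were seen. Each lost its call without knockout 1 (0.108 and 0.0647), knockout 2 (0.129 and 0.128), knockout 3 (0.0996 and 0.10) or control 1 (0.0676 and 0.0681), and both without a filter (0.0728 and 0.0607), as TPM (0.0721 and 0.0716) and scaled without mitochondrial genes (0.0617 and 0.0549). FADS2 had 0.07 after the correction with the block. ME1, the malic enzyme that supplies NADPH, fell to 15.0 ± 1.11 FPKM in the knockout, against 28.2 ± 2.22 FPKM in the control (SD, n = 3 each; log2 fold change -0.87; limma with Benjamini-Hochberg adjustment, adjusted p = 0.000336), in a neighbourhood with a median of -0.46. TMEM97, the sigma-2 receptor, which binds NPC1, fell by 0.42 on the log2 scale (adjusted p = 0.00285). Of the 105 neighbours of TMEM97, 30 were lower and 2 higher, with a median of -0.18, and the part of this was not tested.

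Genes of SREBP processing and of sterol-regulated degradation gave 1 rise and 1 fall among 14. MARCHF6, a ubiquitin ligase of the endoplasmic reticulum that degrades SQLE protein, had 23.6, 22.6 and 23.6 FPKM in the knockout libraries, against 18.8, 17.9 and 17.2 FPKM in the control libraries (log2 fold change 0.36; limma with Benjamini-Hochberg adjustment, adjusted p = 0.00730, and 0.0509 without knockout 3). RNF139, another ligase of that membrane, fell by 0.41 on the log2 scale (adjusted p = 0.00450), and by 0.25 after the correction with the block. RNF139 lies close to SQLE, and its 42 neighbours had a median of -0.37. The 30 neighbours of MARCHF6 had a median of 0.22, with 11 higher and 0 lower. The part of the neighbourhood in either value was not tested. In the isoprenoid branch 0 of 12 rose and 2 fell. NUS1, a subunit of the prenyltransferase for dolichol, had 11.4, 9.30 and 11.1 FPKM in the knockout libraries, against 22.8, 20.3 and 22.9 FPKM in the control libraries (log2 fold change -0.99; limma with Benjamini-Hochberg adjustment, adjusted p = 0.000259). PDSS2, which makes the side chain of coenzyme Q, fell by 0.42 on the log2 scale (adjusted p = 0.00431). Both lie in neighbourhoods with a median of -0.53, where 42 of 50 and 39 of 46 genes were lower, and the part of this was not tested.

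Lipoprotein uptake, sterol transfer and esters had 2 rises, 3 falls and 8 not passed among 13 tested. LRP1, a large scavenger receptor for lipoproteins, measured 8.54, 9.28 and 8.16 FPKM in the knockout libraries, against 4.21, 5.26 and 2.70 FPKM in the control libraries (log2 fold change 0.96; limma with Benjamini-Hochberg adjustment, adjusted p = 0.00405). LIPA, the lysosomal lipase that frees cholesterol from esters, measured 54.6, 47.9 and 52.2 FPKM in the knockout libraries, against 82.4, 79.7 and 78.0 FPKM in the control libraries (log2 fold change -0.63; adjusted p = 0.000835). LRP1 was lowest in control 3, while the median of its neighbours was 0.05 and that of LIPA's was -0.04. The lysosomal sterol transfer protein STARD3 fell by 0.35 on the log2 scale (adjusted p = 0.00889, and 0.0553 without knockout 3), in a neighbourhood where 98 of 197 genes were lower. GRAMD1A and GRAMD1C, carriers from the plasma membrane to the endoplasmic reticulum, went opposite ways, at 0.31 and -0.39 (limma with Benjamini-Hochberg adjustment, adjusted p = 0.0223 and 0.0124); GRAMD1A was named after its values were seen. GRAMD1A lost its call without knockout 1, 2 or 3 (0.0664, 0.0913 and 0.0795), without control 1 (0.0560), as TPM (0.0623) and after the correction with the block (0.12, adjusted p = 0.155). GRAMD1C lost it without knockout 2 (0.0710), and its log2 value was -0.67 with a pseudocount of 0.1.

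A mixed list of LXR targets and partners, further ABC transporters, oxysterol enzymes and cholesterol sulfate genes had 2 rises, 3 falls and 2 not passed among 7 tested. Its counts are therefore no measure of LXR activity. Another 5 were under the filter, among them SULT2B1, which makes the cholesterol sulfate of differentiated epidermis. SULT2B1, named after its values were seen, did not exceed 0.0470 FPKM in any knockout library and 0.0550 FPKM in any control library. RXRA, the partner of LXR, had 23.5, 25.0 and 23.0 FPKM in the knockout libraries, against 17.1, 18.5 and 15.8 FPKM in the control libraries (log2 fold change 0.45; limma with Benjamini-Hochberg adjustment, adjusted p = 0.00448), and 0.22 after the correction with the block. Of the 170 neighbours of RXRA, 40 were higher and 3 lower, with a median of 0.16. ABCA7, a lipid transporter related to ABCA1, rose by 0.65 on the log2 scale (adjusted p = 0.00681, and 0.0580 without knockout 2), and by 0.40 after the correction with the block. ABCG2, an exporter of drugs and urate, and SMPDL3A, an LXR target in human macrophages, fell by 0.39 and 0.57 (adjusted p = 0.00654 and 0.00366), SMPDL3A among neighbours with a median of -0.52 and by 0.34 after the correction with the block. STS, the sulfatase that removes the sulfate of cholesterol sulfate, fell by 0.30 (adjusted p = 0.0206) and was named after its values were seen. Its call was lost without knockout 1, 2 or 3 (0.0731, 0.0855 and 0.0637), without control 1 (0.0707) and when scaled without mitochondrial genes (0.0671), and a pseudocount of 0.1 gave -0.48. Of the 38 neighbours of STS, 15 were lower and 3 higher, with a median of -0.19. The part of the neighbourhood in the RXRA, SMPDL3A and STS values was not tested.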

How the data were processed

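Poly(A)-selected RNA from 6 HaCaT libraries was sequenced, 3 from STUB1 knockout and 3 from control cells. The authors deposited 1 FPKM value per gene and library, rounded to 3 decimals. Per the submitters' processing notes, the build was GRCh38.p13 and the tools were Cufflinks, edgeR 3.6.3, featureCounts 1.6.3, HISAT2 2.0.5 and Trimmomatic 0.36, with no roles given; for the annotation release, the strand setting and any scaling the answer is not given in the sources used here.

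FPKM is no count, so no count test was run. Library sizes were estimated from steps of low FPKM values (genes of 300 to 2000 exonic bases); 60.8% to 66.6% of 324 to 360 values per library lay within 0.15 of whole reads, so reads were not recovered and no counting interval is given. Genes with a mean of at least 1 FPKM were fitted as log2(FPKM + 1), a scale that understates changes of low genes, with limma 3.58.1 in R 4.3.3 (genotype as the term, variance trend) and Benjamini-Hochberg adjustment over all 11262 genes. The fit was also run on simulated data with independent noise in each gene and library. That simulation held no GC or length slopes, no outlying library and no pairing, so it cannot show how the fit handles them. Gene symbols were looked up by Ensembl identifier in a names table (19991 genes) or GENCODE 29 (23), which also gave gene positions on GRCh38, exonic length and GC content of the longest transcript. The correction removed natural splines of GC and log2 length (5 degrees of freedom each) from each library's deviations. Neighbours are tested genes whose start lies within 10 Mb. Further work used matplotlib 3.10.9, scipy 1.17.1, numpy 2.4.6 and pandas 2.3.3 in Python 3.11.15.

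The genes and lists were chosen with earlier results of these data known. All 33 genes are named; of each further list, up to 4 called genes with the smallest p were named by rule. Same-numbered knockout and control libraries deviated together across genes (correlations 0.375, 0.150 and 0.188, all above 0.1), which met the rule for pairing although the labels name no shared batch. The printed values and permutation tests are nonetheless unpaired, and the fit with the replicate number as a block is an alternative. Alternatives covered the pseudocount, filter, scaling, library weights, GC and length correction, replicate block and each library left out.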

Additional observations from a re-analysis of the deposited data

How the results depend on the processing

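The 12 genes called kept their direction under every alternative that tested them. These were 15 alternatives, but 14 for TM7SF2 and MYLIP, which the filter of 5 FPKM removed. Of the 12, 2 genes, ACAT2 and LBR, kept their call under all 15. The replicate block alone left 6 higher and 6 lower and changed no call among the 31 genes. That was 38.7% of the 31 genes, against 27.1% of all genes called in the same fit. The block with the GC and length correction moved no count of the 31 genes by over 1.5 times. Array weights gave 12 genes higher, 15 and 23 of the further genes higher and lower, and 3139 and 3298 of all genes. A filter of 5 FPKM left 7 of the further genes lower and 706 of all genes higher. That fit tested only 51 of the further genes and 8067 of all genes, so calls were also lost by removal of genes. As TPM, 5 of the further genes and 667 of all genes were higher. Over fits that left out 1 library, counts ran from 2 to 9 genes higher and 2 to 7 lower, 2 to 9 enzymes higher, 4 to 9 and 9 to 18 further genes higher and lower, and 391 to 2103 and 639 to 2418 of all genes.

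Signs turned only for genes that did not pass. After the GC and length correction, with and without the block, IDI1 had 0.06 and 0.06, SC5D 0.08 and 0.08, INSIG2 0.20 and 0.20, SCAP -0.08 and -0.08, NPC1 -0.09 and -0.09, and NR1H3 -0.08 and -0.08. Array weights gave EBP 0.08, SCAP -0.00, INSIG2 0.01 and NPC1 -0.02. TPM gave CYP51A1 -0.01, NPC1 -0.02, NPC2 -0.04 and NR1H3 -0.03, and scaling without mitochondrial genes gave EBP 0.01. Over fits that left out 1 library, log2 values ran from -0.11 to 0.11 for EBP, -0.11 to 0.02 for INSIG2, -0.06 to 0.09 for NPC1, -0.05 to 0.12 for NPC2 and -0.05 to 0.07 for NR1H3. The cause was not tested. Depth per gene is unknown, so the precision of the ABCA1 and ABCG1 values is unknown too.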
